A study of Saccharomyces cerevisiae with 7 samples.

Results

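The comparison described here sets yeast cells that had both treatments of the study, 39 °C and rapamycin, against cells that had neither. It was made on nascent RNA, RNA that is still attached to RNA polymerase, in Saccharomyces cerevisiae. A gene entered with a mean over the 4 deposited value columns of 14.442 or more, the 20th percentile of such means, and 4585 of 5732 genes did. The nearest gene inside that limit was SIR2, with a mean of 14.45, and the nearest outside it was XPT1, with a mean of 14.44. The doubly treated cells had 1 µM rapamycin at 39 °C, and the untreated cells were kept at 30 °C with no drug. Cells with heat alone (39 °C) and cells with rapamycin alone (1 µM, 30 °C) give the values set between them below. All 4 conditions used strain DPY1283, in which Hsf1 carries an anchor-away tag (Hsf1-AA) and Rpb3, a subunit of RNA polymerase II, carries a FLAG tag. The controls carry both tags too. The labels give 1 sample per condition, and 3 further samples, on Hsf1 binding, were not analysed here.

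Hsf1 is a transcription factor that binds heat shock elements in promoters and drives genes of chaperones, proteins that fold, hold or rescue other proteins. In an anchor-away strain rapamycin couples the tagged protein to an anchor that carries it out of the nucleus and away from its targets. Heat also activates Msn2 and Msn4, a pair of factors that turn on a general stress program of trehalose, glycogen and antioxidant genes, while genes for making ribosomes are shut down. Some chaperone genes answer to both kinds of factor. Comparing doubly treated with untreated cells shows where each gene ends when heat acts with Hsf1 held away, above, at or below the level of growing cells. Every condition analysed here carries the tag, and Hsf1 removal and any other action of rapamycin cannot be told apart. Not given in the sources used here are the length of heat and drug and whether the TOR kinase of this strain resists rapamycin.

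Each value is the authors' averaged normalized read count of a gene, with no division by gene length, so that levels are compared within a gene and not between genes. Columns summed to 397419.1 with heat plus rapamycin, 433510.0 with heat alone, 369160.1 with rapamycin alone and 377862.5 untreated. Low values fell on whole multiples of 2 steps per column, from which 2 averaged libraries of about 300000 and 205000 reads were read for the doubly treated cells, against 794000 and 372000 for the untreated cells. The averaged libraries cannot be separated, so no SD, n or test is given for any difference. The counting SE beside a ratio covers counting error only, and without molecular identifiers a read is not an independent molecule. Ratios are log2 of (doubly treated + 2.851) over (untreated + 2.851), where 2.851 is 0.1 of the median value. This understates the ratios of genes with low values. The call is 2-fold, that is a log2 ratio of 1 or more for higher and of -1 or less for lower.

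Of the 4585 genes, 609 were higher by 2-fold or more in doubly treated than in untreated cells, and 616 were lower by as much. These are 13.3% and 13.4% of the genes, and over all 5732 measured genes the shares were 12.1% and 12.2%. The median log2 ratio was -0.023, and 2352 genes (51.3%) lay within 1.5-fold. At least 4-fold differences were seen for 178 higher and 170 lower genes. The genes nearest the threshold were PUS5 at 1.0003 and PXA2 at 0.998 on the higher side, and UPC2 at -1.0001 and SKP2 at -0.99995 on the lower side. By list medians, general stress genes were highest and ribosome biogenesis genes lowest, and genes of the Hsf1 chaperone regulon lay on both sides of their untreated level.

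**Figure D1:**
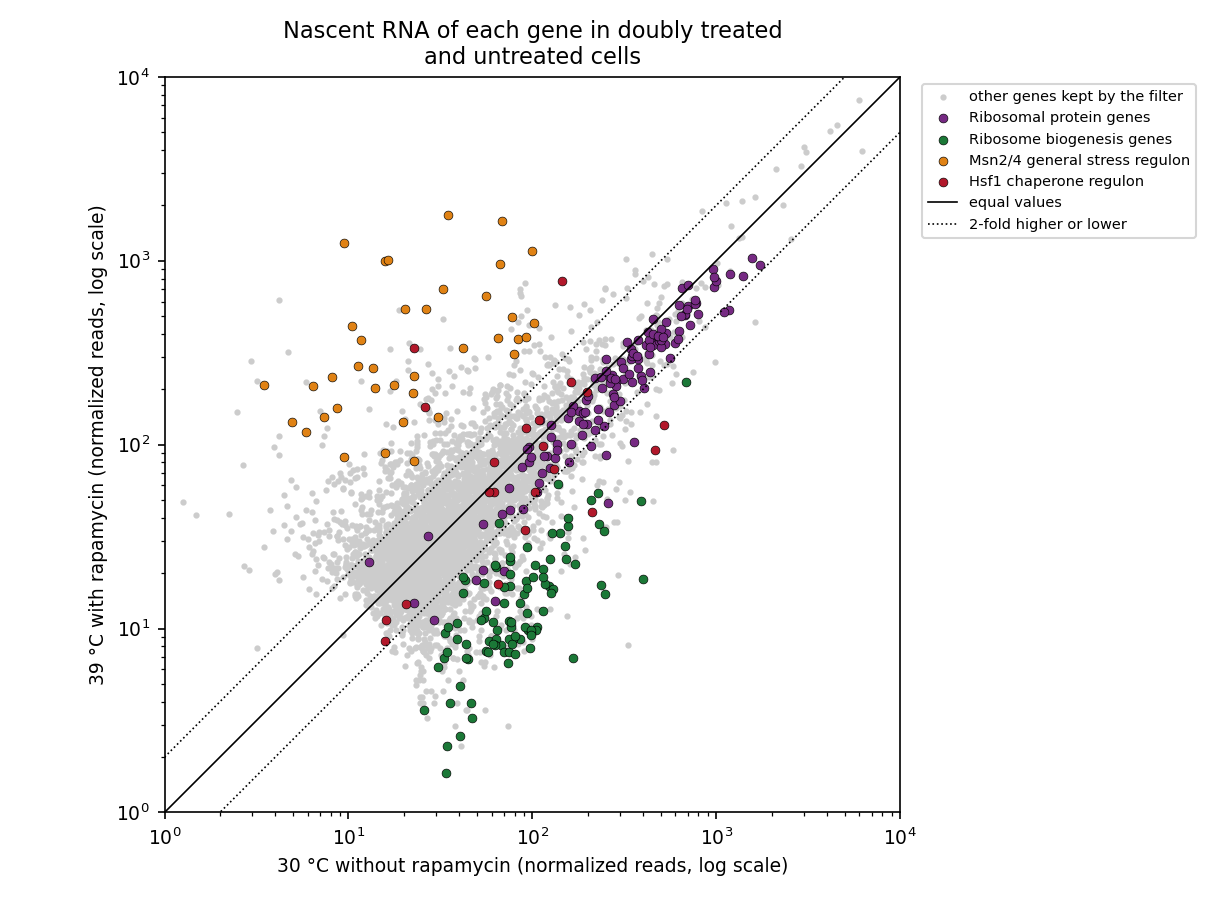
Each point is 1 gene kept by the filter, with normalized reads at 39 °C with rapamycin on the vertical axis and at 30 °C without rapamycin on the horizontal axis, both on log scales, and colours mark 4 gene lists. Dotted lines mark 2-fold in the plotted values, without the pseudocount. The Msn2/4 genes sit above the upper dotted line, ribosome biogenesis genes sit below the lower one with 1 gene between the lines by the called ratio, and the Hsf1 regulon spreads from a log2 ratio of -2.28 to 3.74.

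Genes of the strain and drug system were read first. HSF1 (YGL073W, chromosome VII, 368753 to 371254), which encodes the tethered factor, had 99.98 normalized reads with heat plus rapamycin, 113 with heat alone, 60.3 with rapamycin alone and 78.7 untreated. Its log2 ratio in doubly treated over untreated cells was 0.33 (counting SE 0.16). Anchor-away moves the protein, so this level does not check that Hsf1 had left its targets. RPB3, the gene of the FLAG-tagged polymerase subunit, had 40.8 normalized reads with heat plus rapamycin and 42.02 untreated, a ratio of -0.04. TOR1, which encodes the kinase that rapamycin inhibits, had 70.8 normalized reads with heat plus rapamycin and 69.5 untreated, a ratio of 0.03. Neither of these stood apart from its untreated level by more than its counting SE.

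The Hsf1 chaperone regulon, 21 genes listed for their known dependence on Hsf1, all passed the filter. Its summed reads were 2713 with heat plus rapamycin, 33439 with heat alone, 793 with rapamycin alone and 2687 untreated. The regulon thus took 0.68% of all reads in doubly treated cells and 0.71% in untreated cells. Of the 21 members, 3 were at least 2-fold higher, 5 at least 2-fold lower and 13 between, with a median log2 ratio of -0.21. Over all measured genes 12.1% were higher and 12.2% lower, with a median of -0.019. The 3 higher genes summed to 1271 reads in doubly treated cells and 193 in untreated cells. The 5 lower genes summed to 317 in doubly treated cells and 1350 in untreated cells. The 13 between summed to 1125 in doubly treated cells and 1144 in untreated cells. Every one of the 21 genes had its highest value with heat alone, and 18 had their lowest with rapamycin alone, the other 3 with heat plus rapamycin. Of all 4585 kept genes, 1451 were highest with heat alone and 915 lowest with rapamycin alone. The list was chosen with earlier results of these data known, so this pattern is a description only.

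**Figure D2:**
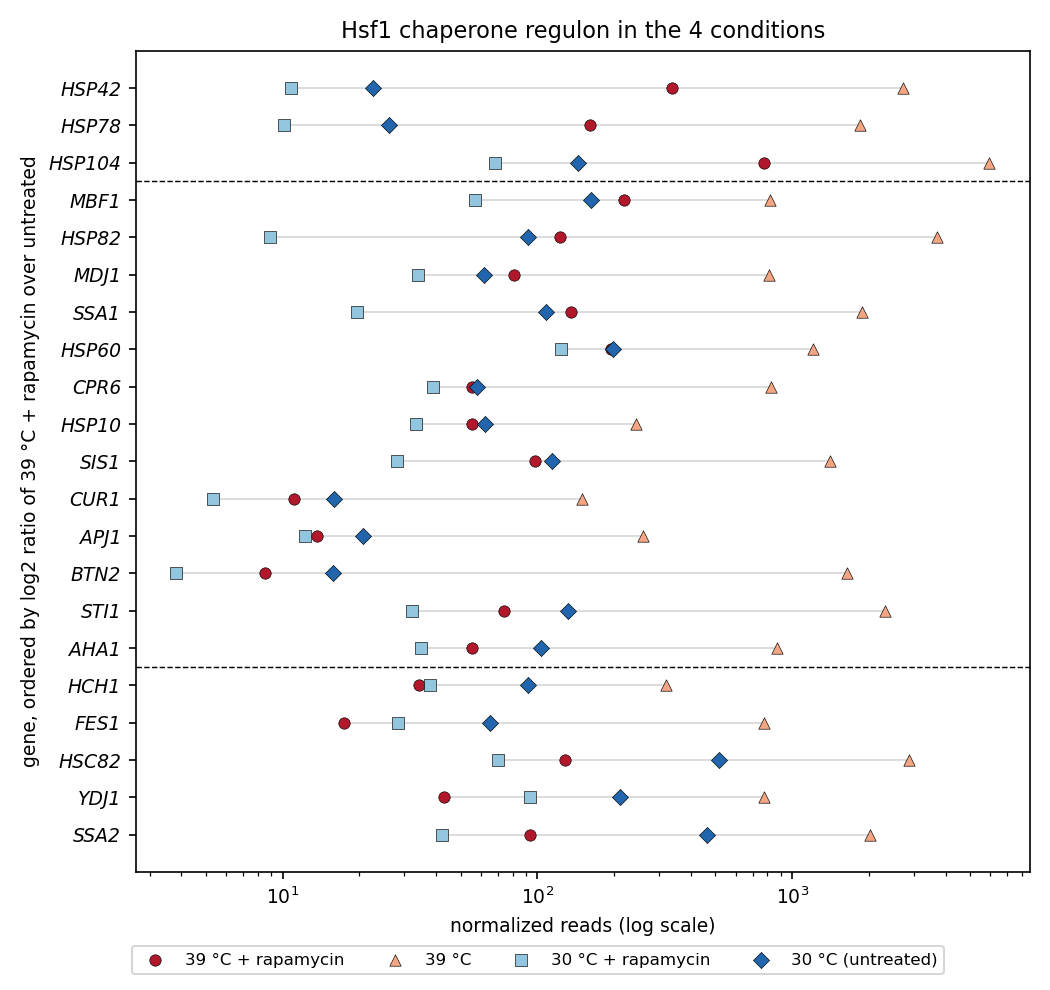
Normalized reads (log scale) of the 21 genes of the Hsf1 chaperone regulon, with 1 symbol for each of the 4 conditions and genes ordered by the log2 ratio of heat plus rapamycin over untreated. Dashed lines part the 3 genes at least 2-fold higher (top), the 13 between and the 5 at least 2-fold lower (bottom), and heat alone gives the rightmost symbol of every gene.

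The genes above their untreated level encode disaggregases of the cytosol and the mitochondria and a small heat shock protein. HSP42 (YDR171W, chromosome IV, 806621 to 807748), a small heat shock protein that gathers misfolded proteins into assemblies, had 337 normalized reads with heat plus rapamycin, 2716 with heat alone, 10.8 with rapamycin alone and 22.6 untreated. The ratio of doubly treated over untreated cells was 3.74 (counting SE 0.18), a 13.3-fold difference. HSP78 (YDR258C, chromosome IV, 971808 to 974243), the disaggregase of the mitochondrial matrix, had 160.3 normalized reads with heat plus rapamycin, 1854 with heat alone, 10.1 with rapamycin alone and 26.03 untreated, and a ratio of 2.50 (counting SE 0.19). HSP104 (YLL026W, chromosome XII, 88623 to 91349), the disaggregase of the cytosol, had 774 normalized reads with heat plus rapamycin, 5932 with heat alone, 68.1 with rapamycin alone and 144 untreated, and a ratio of 2.40 (counting SE 0.09). All of these were well short of heat alone, with 12.4%, 8.65% and 13.0% of its value for HSP42, HSP78 and HSP104. With rapamycin alone each was below its untreated value.

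Related genes outside the 21 showed the same position. HSP26 (YBR072W, chromosome II, 382030 to 382674), the other small heat shock protein gene of the cytosol, had 77.7 normalized reads with heat plus rapamycin, 861 with heat alone, 1.99 with rapamycin alone and 2.68 untreated, a ratio of 3.86 (counting SE 0.30). Its doubly treated value was 9.02% of that with heat alone. HSP31 (YDR533C, chromosome IV, 1501447 to 1502160), which encodes a glyoxalase-like protein with chaperone activity, had 75.2 normalized reads with heat plus rapamycin, 59.6 with heat alone, 25.7 with rapamycin alone and 15.7 untreated, a ratio of 2.07 (counting SE 0.24). Unlike the disaggregase genes it had a higher value with heat plus rapamycin than with heat alone. All 5 measured genes of the disaggregase and small heat shock protein list, which also holds the glyoxalase-like HSP31, were therefore at least 2-fold higher. Over all measured genes 12.1% were. SSE2 (YBR169C, chromosome II, 573915 to 575996), which encodes an Hsp110 that exchanges nucleotide on Hsp70, had 102 normalized reads with heat plus rapamycin, 548 with heat alone, 10.9 with rapamycin alone and 17.1 untreated, a ratio of 2.40 (counting SE 0.22). Its close copy SSE1 (YPL106C, chromosome XVI, 350194 to 352275) had 234 normalized reads with heat plus rapamycin, 2414 with heat alone, 265 with rapamycin alone and 432 untreated, a ratio of -0.88 (counting SE 0.09). The copies ended on opposite sides of their untreated level, and their summed reads were 336 in doubly treated cells and 449 in untreated cells.

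The genes below their untreated level hold the main Hsp70 and Hsp90 copies of growing cells and their helpers. SSA2 (YLL024C, chromosome XII, 95566 to 97485), a cytosolic Hsp70 gene, had 93.4 normalized reads with heat plus rapamycin, 2020.0 with heat alone, 42.3 with rapamycin alone and 463 untreated, a ratio of -2.28 (counting SE 0.14). YDJ1 (YNL064C, chromosome XIV, 505868 to 507097), the general J-protein that hands clients to Hsp70, had 42.9 normalized reads with heat plus rapamycin, 778 with heat alone, 93.2 with rapamycin alone and 212 untreated, a ratio of -2.23 (counting SE 0.20). HSC82 (YMR186W, chromosome XIII, 632355 to 634472), the more constitutive Hsp90 gene, had 129 normalized reads with heat plus rapamycin, 2886 with heat alone, 70.2 with rapamycin alone and 518 untreated, a ratio of -1.99 (counting SE 0.12). These were 4.84-fold, 4.68-fold and 3.97-fold lower in doubly treated cells. FES1 (YBR101C, chromosome II, 443821 to 444693), a nucleotide exchange factor of Hsp70, had 17.4 normalized reads with heat plus rapamycin, 778 with heat alone, 28.4 with rapamycin alone and 64.96 untreated, a ratio of -1.75 (counting SE 0.29). HCH1 (YNL281W, chromosome XIV, 108467 to 108928), an Hsp90 cochaperone, had 34.3 normalized reads with heat plus rapamycin, 321 with heat alone, 37.8 with rapamycin alone and 91.7 untreated, a ratio of -1.35 (counting SE 0.22). YDJ1, FES1 and HCH1 were lower with heat plus rapamycin than with rapamycin alone, while SSA2 and HSC82 were higher. The range of untreated values was 64.96 to 518 reads in the 5 lower genes and 22.6 to 144 in the 3 higher genes. The untreated value is also the denominator of the ratio, so these ranges are a description only.

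Several chaperone genes are near-identical copies, and no source used here states the treatment of reads that match both, which leaves the split within a pair uncertain. Sums over copies do not depend on that split where each shared read was counted once. Shared reads that were dropped or counted in both copies would change the sums too. SSA1 and SSA2 together had 229 normalized reads with heat plus rapamycin, 3906 with heat alone, 61.8 with rapamycin alone and 571 untreated, a log2 ratio of -1.31 (counting SE 0.093). The Hsp90 genes HSP82 and HSC82 together had 252 with heat plus rapamycin, 6601 with heat alone, 79.1 with rapamycin alone and 610.2 untreated, a ratio of -1.27 (counting SE 0.089). The doubly treated sum was 40.1% of the untreated sum for SSA1 and SSA2 and 41.3% for the Hsp90 pair. The stress-induced Hsp70 genes SSA3 and SSA4 together had 78.6 reads with heat plus rapamycin and 41.5 untreated, a ratio of 0.88. All 4 SSA genes summed to 308 reads in doubly treated cells and 613 in untreated cells, a ratio of -0.99, at the edge of the 2-fold rule.

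Within those pairs the inducible copy stood higher against its untreated level than the constitutive one. HSP82 (YPL240C, chromosome XVI, 96496 to 98625) had 123 normalized reads with heat plus rapamycin, 3714 with heat alone, 8.90 with rapamycin alone and 91.99 untreated, a ratio of 0.41 (counting SE 0.15). SSA1 (YAL005C, chromosome I, 139503 to 141431) had 136 normalized reads with heat plus rapamycin, 1886 with heat alone, 19.5 with rapamycin alone and 108 untreated, a ratio of 0.32 (counting SE 0.14). Both lay slightly above their untreated values, while HSC82 and SSA2 lay below theirs. SSA4 (YER103W, chromosome V, 364589 to 366517), the most heat-inducible Hsp70 gene, had 54.1 normalized reads with heat plus rapamycin, 3610.2 with heat alone, 25.2 with rapamycin alone and 28.5 untreated, a ratio of 0.86 (counting SE 0.23). Its doubly treated value was 1.5% of that with heat alone. SSA3 had 24.4 normalized reads with heat plus rapamycin, 433 with heat alone, 16.4 with rapamycin alone and 13.0 untreated, a ratio of 0.78 (counting SE 0.31). Neither of these passed 2-fold.

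Of the 13 regulon genes between the thresholds, 7 had a 95% counting interval of the ratio that includes 0. HSP60, the mitochondrial chaperonin gene, had 194 normalized reads with heat plus rapamycin, 1210.2 with heat alone, 123 with rapamycin alone and 199 untreated, a ratio of -0.03. Its partner HSP10 had a ratio of -0.15, and MDJ1, the J-protein of the mitochondrial Hsp70, one of 0.38 with 80.9 normalized reads with heat plus rapamycin and 61.7 untreated. CPR6, an Hsp90-bound prolyl isomerase gene, had 55.2 normalized reads with heat plus rapamycin, 827 with heat alone, 38.9 with rapamycin alone and 58.1 untreated, a ratio of -0.07. SIS1, a J-protein gene of the cytosol and nucleus, had 97.995 normalized reads with heat plus rapamycin, 1408 with heat alone, 28.2 with rapamycin alone and 114 untreated, a ratio of -0.21. For these genes heat plus rapamycin ended close to the untreated level, with rapamycin alone below it and heat alone far above it. MBF1, a transcription coactivator gene, had 219 normalized reads with heat plus rapamycin and 162 untreated, a ratio of 0.43 (counting SE 0.11).

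Others in this middle group leaned lower. STI1, which joins Hsp70 to Hsp90, had 74.0 normalized reads with heat plus rapamycin, 2320.1 with heat alone, 32.3 with rapamycin alone and 132 untreated, a ratio of -0.81 (counting SE 0.16). AHA1, which stimulates the Hsp90 ATPase, had 55.2 normalized reads with heat plus rapamycin and 104 untreated, a ratio of -0.88 (counting SE 0.19). BTN2 (YGR142W, chromosome VII, 772454 to 773686), a sequestrase that collects misfolded proteins, had 8.51 normalized reads with heat plus rapamycin, 1637 with heat alone, 3.83 with rapamycin alone and 15.7 untreated, a ratio of -0.71 (counting SE 0.38). Its doubly treated value was 0.52% of that with heat alone, the lowest such percentage of the 21 genes. The related sequestrase gene CUR1 had 11.1 normalized reads with heat plus rapamycin and 15.9 untreated, a ratio of -0.43 (counting SE 0.36), and the J-protein gene APJ1 one of -0.51 (counting SE 0.34). The counting intervals of BTN2, CUR1 and APJ1 include 0.

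Across all 104 chaperone and folding genes of the 11 lists, 17 were at least 2-fold higher, 8 at least 2-fold lower and 79 between, with a median log2 ratio of -0.094. The shares over all measured genes were 12.1% higher and 12.2% lower. Beside the disaggregase list, the higher genes were mostly those of the endoplasmic reticulum, where secreted proteins fold. Of its 18 genes, 8 were higher and none lower, with a median of 0.72. MPD1, a member of the disulfide isomerase family, had 73.2 normalized reads with heat plus rapamycin, 51.6 with heat alone, 17.2 with rapamycin alone and 10.6 untreated, a ratio of 2.50 (counting SE 0.26). KAR2, the Hsp70 of the endoplasmic reticulum, had 1019 normalized reads with heat plus rapamycin, 3756 with heat alone, 305 with rapamycin alone and 321 untreated, a ratio of 1.66 (counting SE 0.06). ERO1, the oxidase that supplies disulfide bonds, had 209.7 normalized reads with heat plus rapamycin, 601 with heat alone, 65.8 with rapamycin alone and 66.6 untreated, a ratio of 1.61 (counting SE 0.14). For KAR2 and ERO1 heat alone gave the highest value, while MPD1 was highest with heat plus rapamycin.

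The same held for other genes of that compartment. SIL1, a nucleotide exchange factor of Kar2, had 97.1 with heat plus rapamycin, 55.9 with heat alone and 23.6 untreated, a ratio of 1.92. The J-protein gene JEM1 had 74.6 with heat plus rapamycin, 50.1 with heat alone and 24.4 untreated, a ratio of 1.51. PDI1, the main disulfide isomerase, had 885 with heat plus rapamycin, 758 with heat alone and 362 untreated, a ratio of 1.29. All of these were highest with both treatments together. ERJ5 at 1.04 and LHS1 at 1.004 were just past the threshold, and both were under it after rescaling to equal totals or with 0.5 of the median as pseudocount. The remaining 10 genes, among them the calnexin gene CNE1 at -0.22 and SEC63 at 0.42, ranged from -0.44 to 0.85.

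**Figure D3:**
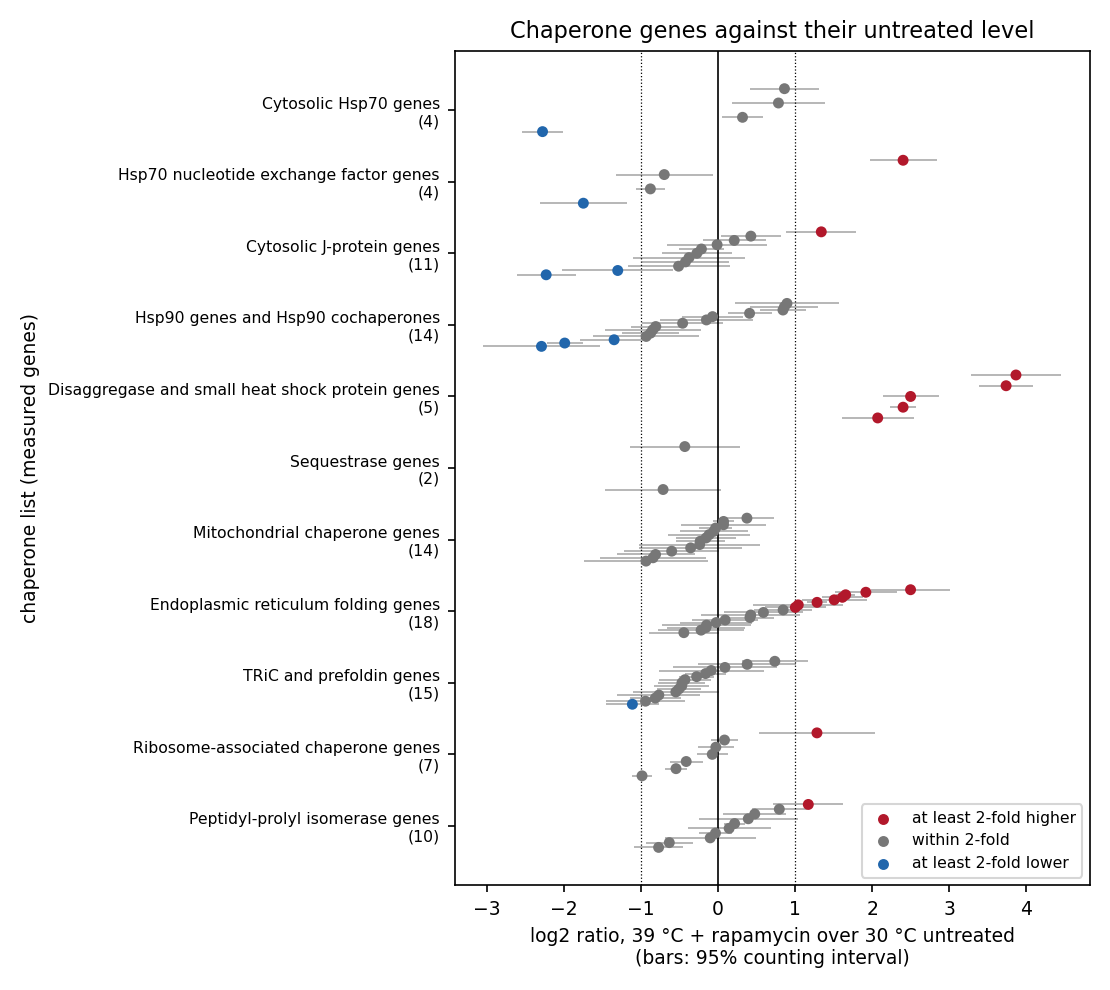
Each point is the log2 ratio of heat plus rapamycin over untreated for 1 gene of the 11 chaperone lists, with a bar for the 95% counting interval, and the number of measured genes stands under each list name. The disaggregase and small heat shock protein list, which also holds HSP78 of the mitochondria and HSP31, lies from 2.07 to 3.86. The mitochondrial chaperone list lies from -0.93 to 0.38, and the Hsp70, exchange factor, J-protein and Hsp90 lists reach from about -2 upward.

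Most chaperones of new proteins lay within 2-fold of their untreated level, as did 4339 of all 5732 measured genes. The shares of all measured genes past 2-fold were 12.1% higher and 12.2% lower. The chaperonin TRiC and prefoldin list, which also holds VID27, neither a chaperonin nor a prefoldin gene, had 1 of 15 genes lower, CCT8 at -1.11 (counting SE 0.17), and none higher. Its median was -0.47, and the other TRiC subunit genes ranged from -0.81 for CCT7 to -0.16 for CCT4. All 8 TRiC genes had negative ratios. Among ribosome-associated chaperones, the Hsp70 gene SSB1 had 435 normalized reads with heat plus rapamycin, 180.2 with heat alone, 809 with rapamycin alone and 864 untreated, a ratio of -0.98 (counting SE 0.07), and SSB2 had 422 normalized reads with heat plus rapamycin, 149 with heat alone, 578 with rapamycin alone and 617 untreated, a ratio of -0.54 (counting SE 0.07). Both had their lowest value with heat alone. Together these near-identical copies had 857 reads with heat plus rapamycin and 1481 untreated, a ratio of -0.79. SSB1 alone passed 2-fold after rescaling to equal totals. SSZ1, ZUO1, EGD1 and EGD2, the partners and the nascent chain complex, ranged from -0.41 to 0.08. BTT1, under the filter, was the 1 higher gene of this list, with 14.7 normalized reads with heat plus rapamycin and 4.34 untreated, a ratio of 1.28 (counting SE 0.38).

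The mitochondrial chaperone list had no gene past 2-fold among 14, against 12.1% of all measured genes higher and 12.2% lower. Its median was -0.19, and HSP78 of the matrix, at 2.50, is counted in the disaggregase list instead. SSC1, the Hsp70 of the matrix, had 502 normalized reads with heat plus rapamycin, 1968 with heat alone, 369 with rapamycin alone and 477 untreated, a ratio of 0.07. Among Hsp90 cochaperones PPT1, a phosphatase of that machine, had 5.91 normalized reads with heat plus rapamycin, 8.18 with heat alone, 43.9 with rapamycin alone and 39.9 untreated, a ratio of -2.29 (counting SE 0.38), the lowest of all 104 genes. It was low with heat whether rapamycin was given or not. PIH1 at 0.89, CDC37 at 0.86 and SBA1 at 0.84 were the highest in that list, and CNS1 at -0.93, CPR7 at -0.85, TAH1 at -0.46 and SGT1 at -0.15 lay under 0. In the J-protein list SWA2, an auxilin-like gene of clathrin uncoating, was higher at 1.34 (counting SE 0.23), and JJJ1, which acts in 60S ribosome assembly, was lower at -1.30 (counting SE 0.37). Of 10 prolyl isomerase genes 1 was higher (10.0%), near the 12.1% of all measured genes. This was CPR4 at 1.17 (counting SE 0.23), which was under 2-fold with 0.5 of the median as pseudocount. CPR1, the cyclophilin A gene, had 209.9 normalized reads with heat plus rapamycin, 362 with heat alone, 142 with rapamycin alone and 215 untreated, a ratio of -0.03.

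The general stress genes had the highest median of the 36 lists. All 38 measured genes of the Msn2/4 regulon passed 2-fold upward, against 12.1% of all measured genes. The regulon's median log2 ratio was 3.78, or 13.7-fold. The summed reads were 17859 with heat plus rapamycin, 19278 with heat alone, 1529 with rapamycin alone and 1253 untreated. With both treatments they took 4.49% of all reads, against 0.33% in untreated cells. The range ran from 1.72 for GAC1, a glycogen phosphatase subunit gene, to 6.68 for HSP12. A pseudocount of 0.5 of the median gave a median of 2.95.

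HSP12 (YFL014W, chromosome VI, 107256 to 107585), which encodes a membrane-stabilising stress protein, had the highest ratio of all 4585 genes, with 1255 normalized reads with heat plus rapamycin, 1066 with heat alone, 10.1 with rapamycin alone and 9.44 untreated (counting SE 0.22). CTT1 (YGR088W, chromosome VII, 654634 to 656322), the cytosolic catalase gene, had 994 normalized reads with heat plus rapamycin, 969.9 with heat alone, 16.4 with rapamycin alone and 15.8 untreated, a ratio of 5.74 (counting SE 0.19). For both, heat gave nearly the same level with rapamycin as without. PGM2 (YMR105C, chromosome XIII, 475897 to 477606), the main phosphoglucomutase gene, had 1013 normalized reads with heat plus rapamycin, 755 with heat alone, 14.6 with rapamycin alone and 16.4 untreated, a ratio of 5.72 (counting SE 0.19). TSL1 (YML100W, chromosome XIII, 70624 to 73920), a trehalose synthase subunit gene, had 1779.5 normalized reads with heat plus rapamycin, 2218 with heat alone, 41.5 with rapamycin alone and 34.6 untreated, a ratio of 5.57 (counting SE 0.14). FMP45, a gene of a plasma membrane domain protein, had 609 with heat plus rapamycin, 440.1 with heat alone and 4.21 untreated, a ratio of 6.44 (counting SE 0.26). Without the pseudocount FMP45 was 145-fold higher and HSP12 133-fold, so the order of these genes depends on the pseudocount.

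The rest of the 15 highest genes were PHM7 at 5.62, RGI1 at 5.42, YER067C-A at 5.22, DCS2 at 5.08, RTN2 at 5.06, YNR034W-A at 4.85, TFS1 at 4.68, YER066C-A at 4.66, GAD1 at 4.66 and OM45 at 4.57. GAD1 encodes glutamate decarboxylase, and OM45 a protein of the mitochondrial outer membrane. YER066C-A and YER067C-A are not in the RefSeq gene table. Their systematic names place them beside RGI1 (YER067W), and whether they share reads with it was not tested. YNR034W-A stood on about 8 reads in untreated cells. Its raw ratio of 61.1 had a 95% Poisson interval from 29.6 to 135 for the untreated count alone.

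Trehalose and glycogen, the storage sugars of stressed yeast, had 16 of 18 genes past 2-fold upward, against 12.1% of all measured genes. The list median was 2.93. The trehalose phosphatase gene TPS2 had 957 with heat plus rapamycin, 863 with heat alone and 66.8 untreated, a ratio of 3.78 (counting SE 0.11), and the glycogen phosphorylase gene GPH1 545 with heat plus rapamycin, 707 with heat alone and 26.3 untreated, a ratio of 4.23 (counting SE 0.16). The 2 genes under 2-fold were GLG2 at 0.70, a glycogen primer gene, and PGM1 at 0.42, the minor phosphoglucomutase gene.

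Genes of mitochondrial energy metabolism were also mostly above their untreated level. In 19 of 21 citric acid cycle and 32 of 35 respiratory genes the highest of the 4 values was with heat plus rapamycin. Of all 4585 kept genes, 1023 were highest in that condition. Of 21 citric acid cycle genes 14 were at least 2-fold higher and 1 lower, with a median of 1.42. Over all measured genes 12.1% were higher and 12.2% lower. The citrate synthase gene CIT1 (YNR001C, chromosome XIV, 629622 to 631061) had 699 normalized reads with heat plus rapamycin, 353 with heat alone, 128 with rapamycin alone and 85.97 untreated, a ratio of 2.98 (counting SE 0.10). The succinate dehydrogenase gene SDH1 had 541 normalized reads with heat plus rapamycin, 317 with heat alone, 96.9 with rapamycin alone and 94.1 untreated, a ratio of 2.49 (counting SE 0.10). MDH1, the mitochondrial malate dehydrogenase gene, had 462 normalized reads with heat plus rapamycin, 258 with heat alone, 76.9 with rapamycin alone and 83.8 untreated, a ratio of 2.42 (counting SE 0.11).

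Respiratory chain and ATP synthase genes were past 2-fold upward in 24 of 35 cases (68.6%) and downward in none, with a median of 1.23. Over all measured genes 12.1% were higher and 12.2% lower. Summed reads of the respiratory list were 7151 with heat plus rapamycin, 4221 with heat alone, 2936 with rapamycin alone and 3005 untreated. CYC7, the stress isoform of cytochrome c, had 159 with heat plus rapamycin, 114 with heat alone and 8.65 untreated, a ratio of 3.81 (counting SE 0.25). The internal NADH dehydrogenase gene NDI1 had 646 with heat plus rapamycin, 302 with heat alone and 86.5 untreated, a ratio of 2.86 (counting SE 0.10), and the cytochrome c1 gene CYT1 323 with heat plus rapamycin, 166 with heat alone and 89.8 untreated, a ratio of 1.82 (counting SE 0.12). NDE1, an external NADH dehydrogenase gene, was at -0.06. Mitochondrial ribosomal protein genes, by contrast, had 1 of 66 past 2-fold, upward (1.52%, under the share of all measured genes), and a median of 0.08. That gene, MRP8 at 1.78, shares the name but is not known to encode a ribosomal protein.

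Glycolysis genes had 5 of 20 members higher and none lower, with a median of 0.46. The higher ones include the glucokinase gene GLK1 at 4.53 (counting SE 0.11), the hexokinase gene HXK1 at 4.32 (counting SE 0.15), the glyceraldehyde phosphate dehydrogenase gene TDH1 at 2.91 (counting SE 0.19) and the minor pyruvate kinase gene PYK2 at 2.67 (counting SE 0.17). GLK1 overlaps the dubious frame YCL042W by 106 bases. Others lay near their untreated level, with ENO2 at 0.16, GPM1 at -0.03 and HXK2 at -0.23. The copies TDH2 and TDH3 together had 6216 reads in doubly treated cells and 5058 in untreated cells, a ratio of 0.30.

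Ribosome biogenesis had the lowest median of the 36 lists. The list of 98 measured biogenesis genes held 97 past 2-fold downward (99.0%, against 12.2% of all measured genes) and none upward. Its median log2 ratio was -2.43, or 5.37-fold lower. The exception, RRP7 at -0.77 (counting SE 0.22), was lower by less than 2-fold. Summed reads of the list were 1739.9 with heat plus rapamycin, 830.4 with heat alone, 8863 with rapamycin alone and 9901 untreated. The doubly treated sum was thus above that with heat alone and far below the untreated one. A pseudocount of 0.5 of the median gave a list median of -1.75.

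NSR1 (YGR159C, chromosome VII, 806412 to 807656), a nucleolin-like gene of rRNA processing, had 18.6 normalized reads with heat plus rapamycin, 9.85 with heat alone, 353 with rapamycin alone and 401 untreated, a ratio of -4.24 (counting SE 0.27). By the ratio with its pseudocount, only YGR160W was lower, at -4.93 (counting SE 0.34). It is not in the RefSeq gene table and its systematic name places it beside NSR1 (YGR159C), and whether they share reads was not tested. NOG2 (YNR053C, chromosome XIV, 721120 to 723112), a GTPase gene of 60S export, had 6.88 normalized reads with heat plus rapamycin, 5.83 with heat alone, 136 with rapamycin alone and 167 untreated, a ratio of -4.13 (counting SE 0.36). NOG1, another 60S GTPase gene, had 17.3 normalized reads with heat plus rapamycin, 5.95 with heat alone, 196 with rapamycin alone and 236 untreated, a ratio of -3.57 (counting SE 0.27). DBP2, an RNA helicase gene, had 15.4 with heat plus rapamycin, 13.4 with heat alone and 249 untreated, a ratio of -3.78 (counting SE 0.29). Each of these was low under heat with and without rapamycin and within 1.5-fold of untreated with rapamycin alone.

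The others of the 15 lowest genes were RSA4 at -3.73, INA1 at -3.72, HXT1 at -3.44, SDA1 at -3.23, AAH1 at -3.17, YGR079W at -3.16, GFD2 at -3.13, MF(ALPHA)1 at -3.12, DBP3 at -3.08 and NOP19 at -3.08. RSA4, SDA1, DBP3 and NOP19 act in ribosome assembly, HXT1 is a low-affinity glucose transporter gene, AAH1 encodes adenine deaminase and MF(ALPHA)1 the alpha-factor pheromone. NOP19 stood on about 3 reads in doubly treated cells. Without the pseudocount it was 17.7-fold lower, with a 95% Poisson interval from 5.91 to 83.7. RSA4 stood on about 4 reads and was 25.1-fold lower, interval from 9.20 to 86.5. Without the pseudocount NOG2 was 24.3-fold lower and NSR1 21.6-fold, so the order of the lowest genes depends on the pseudocount.

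Other parts of the translation machinery followed to differing degrees. RNA polymerase I and III genes had 20 of 30 members lower (66.7%) and 1 higher (3.33%), with a median of -1.41. Over all measured genes 12.2% were lower and 12.1% higher. Of the 30 polymerase genes 6 were under the filter. RPA190, the largest subunit of polymerase I, had 49.8 normalized reads with heat plus rapamycin, 46.4 with heat alone, 326 with rapamycin alone and 319 untreated, a ratio of -2.61 (counting SE 0.18), and RPA135 had 55.05 normalized reads with heat plus rapamycin and 338 untreated, a ratio of -2.56 (counting SE 0.17). The higher gene was MAF1 at 1.08 (counting SE 0.26), which encodes the repressor of polymerase III. Cytosolic translation factor genes had 16 of 37 lower (43.2%), or 6 with a pseudocount of 0.5 of the median, and a median of -0.94. The initiation factor genes NIP1 at -1.71 (counting SE 0.11) and TIF4631 at -1.61 (counting SE 0.14) were lowest, and CAM1 at 0.62 highest.

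Ribosomal protein genes were closer to their untreated level. Of 135 measured, 11 were at least 2-fold lower and none higher, a share of 8.15% against 12.2% of all measured genes, with a median of -0.41. RPP1, 1 of the 11, was matched by its name but encodes a subunit of ribonuclease P. At 0.5 of the median as pseudocount 7 were lower. Yet 123 of the 135 had ratios below 0. The summed reads were 37724 with heat plus rapamycin, 20449.7 with heat alone, 49747 with rapamycin alone and 51147 untreated. With both treatments the list took 9.49% of all reads, with heat alone 4.72%, and 13.5% in untreated cells. RPL9B had 48.3 normalized reads with heat plus rapamycin, 33.1 with heat alone, 254 with rapamycin alone and 259 untreated, a ratio of -2.35 (counting SE 0.19), the lowest of the list. RPL37A had 293 normalized reads with heat plus rapamycin, 113 with heat alone, 229.9 with rapamycin alone and 251 untreated, a ratio of 0.22 (counting SE 0.09). Many of these genes come as near-identical pairs, so single values are uncertain.

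**Figure D4:**
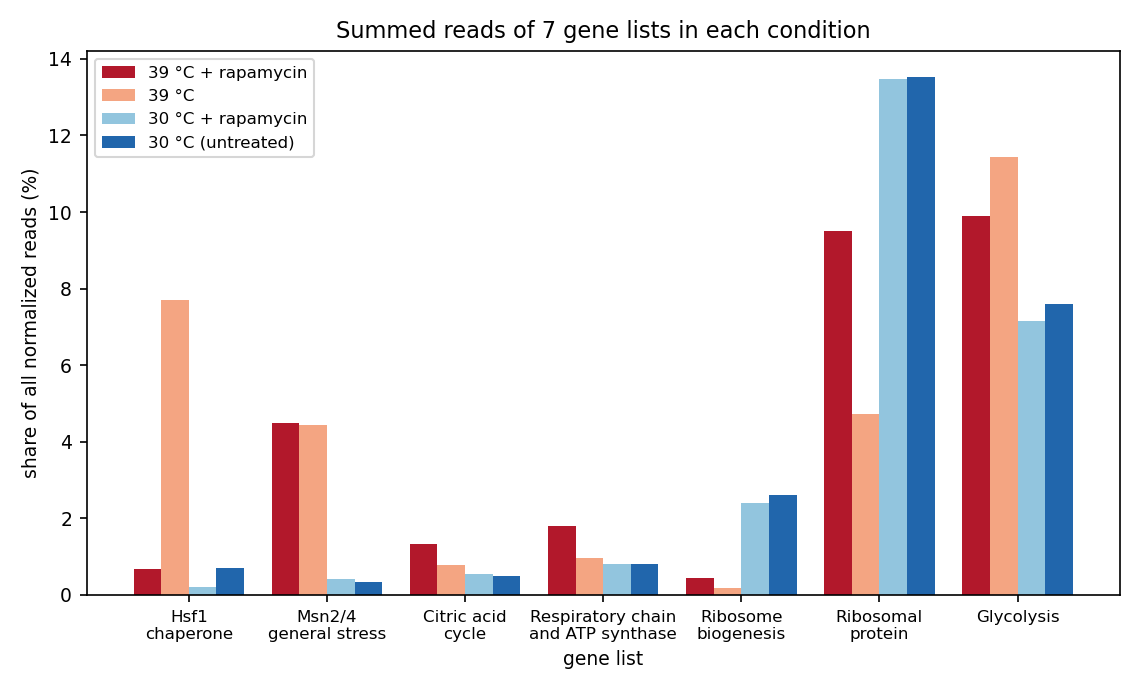
Bars give the share of all normalized reads (percent, from 0) taken by 7 gene lists in each of the 4 conditions, with no error bars since there are no replicate values. The Hsf1 regulon takes 0.68% with heat plus rapamycin, 7.71% with heat alone and 0.71% untreated, while the Msn2/4 regulon takes 4.49% and 4.45% at 39 °C with and without rapamycin.

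Protein breakdown genes differed by group. None of 34 proteasome genes passed 2-fold, against 12.1% higher and 12.2% lower over all measured genes. The proteasome median was 0.16, with PRE5 highest at 0.82 and PRE1 lowest at -0.36. Ubiquitin genes had 3 of 18 higher (16.7%), against 12.1% of all measured genes. The polyubiquitin gene UBI4 had 384 normalized reads with heat plus rapamycin, 801 with heat alone, 74.2 with rapamycin alone and 92.95 untreated, a ratio of 2.01 (counting SE 0.11), and the ubiquitin ligase genes HRD1 and HUL5 had ratios of 1.20 and 1.07. Autophagy genes had 12 of 31 higher (38.7%, against 12.1% of all measured genes) and none lower. The list median was 0.56, but 13 of the 31 genes were under the filter. At 0.5 of the median as pseudocount 2 were higher. ATG17, under the filter, was highest at 2.30 (counting SE 0.34).

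Oxidative stress genes of the Yap1 list had 10 of 21 higher (47.6%, against 12.1% of all measured genes) and none lower. The list median was 0.99, or 0.53 with 0.5 of the median as pseudocount. The peroxiredoxin gene PRX1 was at 2.11 (counting SE 0.18) and the glutaredoxin gene GRX2 at 2.09 (counting SE 0.21). Drug resistance genes of Pdr1 and Pdr3 had 3 of 13 higher (23.1%), against 12.1% of all measured genes, and a median of 0.19. The polyamine transporter gene TPO4 was highest at 3.14 (counting SE 0.15), and 7 ratios of this list were above 0 and 6 below. Nitrogen catabolite genes, which loss of TOR activity is known to raise, had 8 of 25 higher (32.0%) and 1 lower (4.0%), with a median of 0.27. Over all measured genes 12.1% were higher and 12.2% lower. The arginine breakdown gene CAR2 had 221 normalized reads with heat plus rapamycin, 227 with heat alone, 11.8 with rapamycin alone and 11.7 untreated, a ratio of 3.94 (counting SE 0.22), and CAR1 had 149.8 normalized reads with heat plus rapamycin, 98.5 with heat alone, 24.6 with rapamycin alone and 27.4 untreated, a ratio of 2.34 (counting SE 0.18). With rapamycin alone both were within 1.5-fold of untreated. Summed reads of the list were 2416 with heat plus rapamycin, 2358 with heat alone, 2135 with rapamycin alone and 1878 untreated. Of its 25 genes 10 had their lowest value untreated, as did 1196 of all 4585 kept genes. The ammonium transporter gene MEP2 was at -0.83 (counting SE 0.22) and the arginine permease gene CAN1 at -1.12 (counting SE 0.20). Amino acid synthesis genes had 3 of 56 higher (5.36%) and 6 lower (10.7%), under the shares of all measured genes, and a median of -0.11. Single members were lower, with the branched-chain genes ILV5 at -1.79 (counting SE 0.06), ILV3 at -1.58 (counting SE 0.09) and BAT1 at -1.39 (counting SE 0.12) among the lowest.

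Lists of division and mating genes were mixed, with medians below 0. Cyclin and G1 control genes had 6 of 21 lower, 1 higher and 14 between, against 12.2% of all measured genes lower, with a median of -0.55. The G1 cyclin gene CLN2 had 9.78 normalized reads with heat plus rapamycin, 8.32 with heat alone, 68.1 with rapamycin alone and 79.8 untreated, a ratio of -2.71 (counting SE 0.34), and the mitotic cyclin genes CLB1 and CLB2 had ratios of -2.42 (counting SE 0.35) and -2.26 (counting SE 0.35). CLN3, the first cyclin of G1, had 138 normalized reads with heat plus rapamycin, 72.3 with heat alone, 146 with rapamycin alone and 141 untreated, a ratio of -0.03. Histone genes had 6 of 11 lower (54.5%, against 12.2% of all measured genes) and a median of -1.05. HTA2 was at -1.48 (counting SE 0.17), while HHT2 at 0.15 and HHF2 at 0.07 were near untreated. Pheromone and mating genes had 9 of 21 lower (42.9%, against 12.2% of all measured genes), 1 higher and 11 between. The list median was -0.77. MF(ALPHA)1 had 49.5 normalized reads with heat plus rapamycin, 33.02 with heat alone, 384 with rapamycin alone and 453 untreated, a ratio of -3.12 (counting SE 0.18), and the a-factor receptor gene STE3 had 24.5 normalized reads with heat plus rapamycin, 15.4 with heat alone, 161 with rapamycin alone and 170.1 untreated, a ratio of -2.66 (counting SE 0.24). Sterol and fatty acid synthesis genes had 6 of 27 lower (22.2%, against 12.2% of all measured genes) and 21 between. Among the lower ones were ERG3 at -1.81 (counting SE 0.17) and the desaturase gene OLE1 at -1.79 (counting SE 0.08).

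Cell wall integrity genes had 5 of 28 higher (17.9%) and 2 lower (7.14%), against 12.1% and 12.2% of all measured genes. Their median was 0.24, and the range ran from -1.59 for WSC4 to 4.13 for SPI1. Stress transcription factor genes had 4 of 21 higher (19.0%), 3 lower (14.3%) and 14 between, near the shares of all measured genes, with a median of -0.04. USV1 at 2.62 (counting SE 0.27), XBP1 at 2.33 (counting SE 0.23), CIN5 at 1.96 (counting SE 0.23) and GIS1 at 1.87 (counting SE 0.19) were higher. IFH1 at -1.47 (counting SE 0.26) and FHL1 at -1.27 (counting SE 0.31), which encode activators of ribosomal protein genes, and the repressor gene ROX1 at -1.21 (counting SE 0.15) were lower. MSN2 had a ratio of 0.59 and MSN4 one of 0.28. Of 9 reference genes 1 (11.1%, near the 12.2% of all measured genes) was lower, SPT15 at -1.04 (counting SE 0.23), and the median was 0.15. ACT1 was at 0.23 and PDA1 at 0.51.

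**Figure D5:**
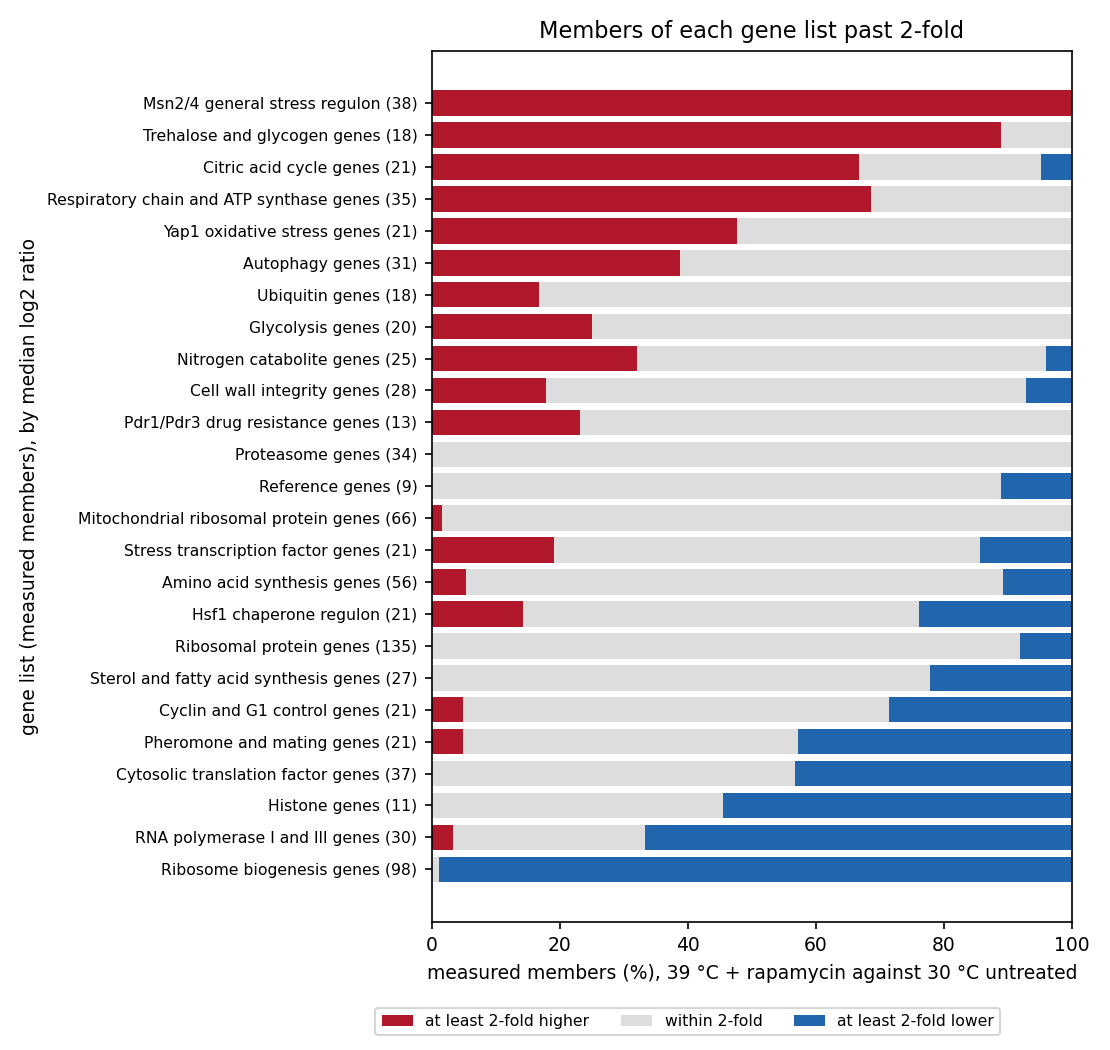
For each of 25 gene lists outside the chaperone lists, the bar splits its measured members (percent) into those at least 2-fold higher, within 2-fold and at least 2-fold lower in heat plus rapamycin against untreated, with lists ordered by median log2 ratio. The Msn2/4 regulon is wholly in the higher class at the top, ribosome biogenesis has 97 of 98 members in the lower class at the bottom, and the Hsf1 regulon splits into 3, 13 and 5.

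Most genes past 2-fold are in none of the 36 lists, which hold 137 of the 609 higher genes (22.5%) and 188 of the 616 lower genes (30.5%). Gene length, which the ratio does not use, had a median of 1268 bases in 585 higher genes with an annotated length, 1452 in 586 lower genes and 1374 in 4418 kept genes. Loci with no gene name were 18.9% of the higher genes, 11.2% of the lower genes and 11.4% of all kept genes. The higher genes took 23.0% of all reads in doubly treated cells and 6.03% in untreated cells. The lower genes took 4.56% in doubly treated cells and 16.2% in untreated cells.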

How the data were processed

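Nascent RNA was measured in 4 conditions of 1 strain, with 1 sample per condition. The deposited table holds signal values, normalized read counts that the authors averaged per condition, per the file headers. HTSeq and build sacCer3 are named per the submitters' processing notes. The aligner, annotation, strand setting, scaling and versions were not given in the sources used here. How reads divide between overlapping genes, antisense partners or near-identical copies is therefore uncertain. Columns were matched to conditions by header abbreviations.

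Values were used as deposited. Genes were kept at or above the 20th percentile of the mean over the 4 columns, and lists were counted over every measured member, also under the filter. With 1 averaged column per condition no test was made. Values under 6 were checked against sums of 2 steps per column, assuming at least 1 read of each library, and 100% lay within 0.0055, against 5.26% to 27.3% of evenly spaced values. Counting SEs and 95% intervals use these steps. At the median gene the counting error was 17.1% with heat plus rapamycin and 11.3% untreated. The step fit and the 2-fold rule were also run on data simulated from the same 2-step model, with counting error only. That simulation cannot show how often unchanged genes pass 2-fold in the real columns. Python 3.11.15, numpy 2.4.6, pandas 2.3.3 and scipy 1.17.1 were used.

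Members and lists were chosen with earlier results of these data known. Named were the 15 highest and 15 lowest kept genes, all chaperone list members, up to 4 genes at each end of other lists, genes at the threshold edges, and HSF1, RPB3 and TOR1. The exceptions, named after their values were seen, are SIR2 and XPT1 at the filter edge, RPP1, MSN2, MSN4, TDH2, TDH3 and the frame that overlaps GLK1. Coordinates span the annotated gene in assembly R64, to which 5351 of 5732 loci matched. The alternatives tried were other pseudocounts, filters, scalings and fold thresholds. Promoter sequences were not used here. A result on 1 further named gene is not reported here.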

Additional observations from a re-analysis of the deposited data

How the results depend on the processing

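With 1 averaged column per condition, no value has a replicate check, and the shallower doubly treated libraries limit the genes with few reads there most. The split of the Hsf1 regulon into 3 higher and 5 lower genes was the same under both other pseudocounts, the other filters and both rescalings. A threshold of 1.5-fold gave 3 higher and 8 lower, and 3-fold gave 3 and 4. For the 104 chaperone genes the counts were 26 higher and 25 lower at 1.5-fold, and 10 and 5 at 3-fold. Over kept genes they were 1099 higher and 1134 lower at 1.5-fold, and 287 and 289 at 3-fold. A pseudocount of 0.5 of the median gave 417 higher and 382 lower genes, since it draws low values together, and 0.01 gave 671 and 685. With 0.5 the chaperone genes BTT1, CPR4, ERJ5, LHS1, CCT8 and JJJ1 were no longer past 2-fold. Rescaling to equal totals moved the median of kept genes to -0.094 and gave 553 higher and 677 lower. No named gene past 2-fold turned direction under any pseudocount, filter or rescaling tried. Keeping only chaperone members past the filter, a setting added after seeing the data, gave 16 higher and 8 lower. No paired analysis was possible because each condition has 1 averaged column and no replicate numbers.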
